A study of Mus musculus with 12 samples.

Results

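The comparison set the array of granulocyte-macrophage progenitors (GMPs) from bone marrow with RAEB against the array of GMPs from bone marrow with MDS/MPN. RAEB, refractory anaemia with excess blasts, is a myelodysplastic syndrome with raised numbers of immature cells. MDS/MPN is a disease with features of both a myelodysplastic syndrome and a myeloproliferative neoplasm. The arrays were chosen by their labels and are 2 of the 12 in the series. GMPs are progenitors that form granulocytes and monocytes. The series holds the same 6 conditions in GMPs and in LSK cells (without lineage markers, with Sca-1 and c-Kit on the surface, a population that contains the stem cells), with 1 array per condition and cell type. Both diseased arrays came from cells of the genotype Tet2KD/KDEzh2-/-, a knockdown (hypomorphic) allele of the DNA demethylase Tet2 combined with loss of the histone methyltransferase Ezh2. The 4 GMP arrays without disease were Tet2KD/KDEzh2-/-, Ezh2-/-, Tet2KD/KD and wild-type. All cells were of C57BL/6 strain and came from recipient mice whose marrow had been repopulated with fetal liver cells, wild-type in the control group. The labels give neither an age, a time after transplantation nor a number of mice behind an array, and do not say whether remaining host cells were gated out.

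With 1 array on each side there was no spread between samples to test against, so every value below is a size and none is a test. A level is the log2 of the processed array signal minus the 75th percentile of that array, and a difference is RAEB minus MDS/MPN on that scale. A gene was counted as higher or lower when its levels lay at least 2-fold apart (1 on the log2 scale) and its signal on the brighter array was well above background, the scanner software's own call. Fewer cells of a type and less RNA per cell cannot be told apart in such bulk RNA.

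GMPs leave the stem cell compartment already committed to the myeloid lineages, and as they mature they first make primary granule proteins such as myeloperoxidase and neutrophil elastase, and later the secondary granule proteins, S100 proteins and chitinase-like proteins of neutrophils. Eosinophil precursors instead make ribonucleases, eosinophil peroxidase and major basic protein. Tet2 removes DNA methylation through oxidation, and Ezh2 is a catalytic subunit of Polycomb repressive complex 2 (PRC2), which methylates histone H3 at silenced genes.

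The labelled cell type was reflected in the levels of most of its markers. All 9 GMP markers (Elane, Mpo, Prtn3, Ctsg, Ms4a3, Fcgr3, Cd34, Kit and Cebpa) were well above background on all 6 GMP arrays. All 9 were so on both diseased LSK arrays as well, so this call does not separate the cell types. Myeloperoxidase (Mpo) lay between 10.86 and 11.27 in GMPs, against 7.83 to 8.54 on the LSK arrays without disease. Elane, Prtn3, Ctsg, Ms4a3, Fcgr3 and Cebpa were likewise higher on every GMP array than on any of those LSK arrays. Cd34 (at most 7.73 in GMPs, at least 7.77 in those LSK arrays) and Kit (at most 3.73, at least 4.43) were lower. The stem cell genes Mecom and Mycn were not well above background on any of the 6. Tet2 was at -3.09 in RAEB and -1.77 in MDS/MPN, against -1.01 in Tet2KD/KDEzh2-/-, 1.51 in Ezh2-/-, -0.64 in Tet2KD/KD and 1.57 in wild-type GMPs, so the 4 arrays that carry the knockdown allele were the lowest and RAEB the lowest of all. The difference of -1.32 in Tet2 between the diseased arrays was -0.41 with a normexp background correction and -0.96 with the mean of its probes. Ezh2 lay at 2.68 in RAEB and 2.68 in MDS/MPN, against 3.12 in Tet2KD/KDEzh2-/-, 3.35 in Ezh2-/-, 3.40 in Tet2KD/KD and 3.24 in wild-type GMPs. Whether the Ezh2 probe lies inside the deleted part was not known, and its level did not separate the Ezh2-/- array from the wild-type one.

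The RAEB and MDS/MPN GMP arrays were hybridised on the same slide, and the 4 GMP arrays without disease on another, so that disease and slide cannot be told apart in any comparison with those 4. The 75th percentile of the raw signal was 168.5 in RAEB and 188.8 in MDS/MPN, and 46.7% and 45.6% of their gene spots were well above background. Repeated spots of 1 probe had a median SD of 0.07 on the log2 scale on both arrays, which covers technical spread within an array only. Both diseased GMP arrays showed the Y-linked Eif2s3y (0.82 in RAEB and 1.51 in MDS/MPN) with Xist not well above background. Of the arrays without disease Eif2s3y stood at -6.20 in Tet2KD/KDEzh2-/-, 2.54 in Ezh2-/-, 2.68 in Tet2KD/KD and -6.32 in wild-type GMPs, so the diseased arrays also differed in sex-linked signal from the array of their own genotype. Both diseased LSK arrays had Xist at 1.63 in RAEB and 1.35 in MDS/MPN, with Eif2s3y at the background. Of 3 measured sex-linked genes Uty alone passed 2-fold between the diseased GMP arrays, at least 2.95-fold higher in RAEB.

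RAEB and MDS/MPN GMPs differed by at least 2-fold in 15.5% of the 12645 genes measured on at least 1 of the pair. In RAEB 676 genes were higher (5.35%) and 1283 were lower (10.1%). The median gene lay at a difference of -0.17, with 38.8% of all differences above 0. Counts of the gene lists below are to be read against these shares. With each array centred on its median instead of its 75th percentile, the split was 522 higher and 1797 lower. At least 4-fold differences were seen in 182 higher and 220 lower genes, and at least 8-fold in 43 and 62. Of the higher genes 417 were well above background on both arrays, and of the lower genes 1026. With a normexp background correction, which adds an offset to dim signals, 180 genes were higher and 755 lower.

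The distance between the diseased arrays exceeded that between any 2 of the arrays without disease. Among the 4 GMP arrays without disease, 4.15 to 7.54% of genes lay at least 2-fold apart. RAEB differed in 19.4% of genes from Tet2KD/KDEzh2-/-, in 21.7% from Ezh2-/-, in 20.4% from Tet2KD/KD and in 20.4% from wild-type GMPs. MDS/MPN differed in 10.9%, 16.3%, 17.2% and 14.8% of genes from the same 4 arrays in that order. MDS/MPN was therefore closer than RAEB to each of the 4. These comparisons share arrays and, against the 4, differ in slide. In LSK cells RAEB differed from MDS/MPN in 4.85% of 13481 genes (283 higher, 2.1%, and 371 lower, 2.75%).

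**Figure D1:**
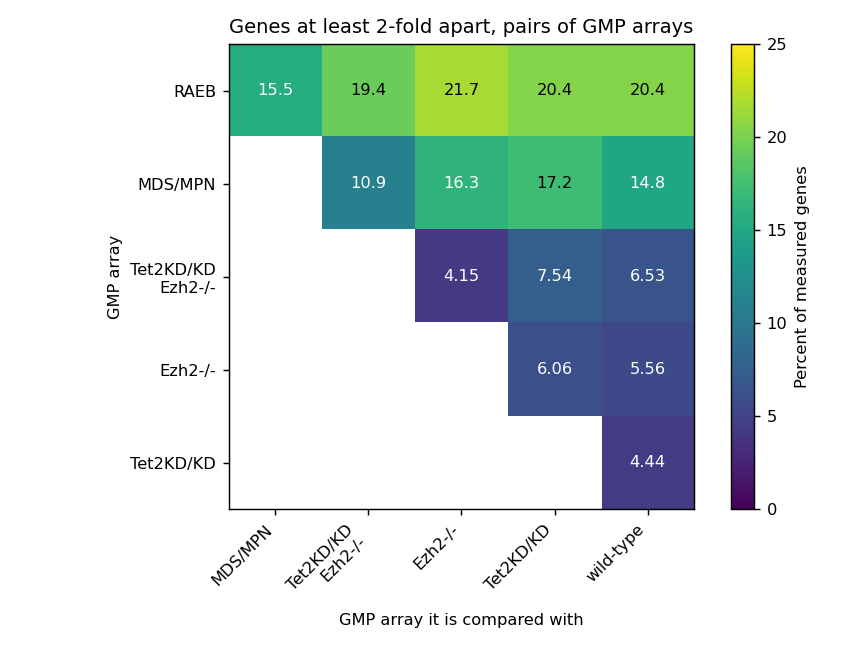
Share of measured genes at least 2-fold apart, in percent, for each pair of the 6 GMP arrays, with 1 array per condition. Each cell compares the array named at its row with the array named at its column. The row of RAEB holds 15.5 to 21.7%, and the pairs among the 4 arrays without disease hold 4.15 to 7.54%.

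Most of the genes that differed placed RAEB outside the range of the 4 arrays without disease. Of the 676 higher genes RAEB lay above all 4 in 562 (4.44% of all genes), whereas over all genes measured RAEB lay above all 4 in 40.1% and MDS/MPN in 58.1%. In 212 of these MDS/MPN lay within the range of the 4, in 194 it also lay above them, and in 156 it lay below them. Of the 1283 lower genes RAEB lay below all 4 in 1023 (8.09% of all genes), against 36.4% of all genes for RAEB and 20.5% for MDS/MPN. In 719 of those MDS/MPN lay above all 4, in 210 within their range and in 94 also below it. The commonest arrangement among lower genes was thus RAEB beneath and MDS/MPN over the arrays without disease. Choosing genes by the difference between RAEB and MDS/MPN favours such positions in advance, so they only describe the called genes. The 4.44% and 8.09% are shares of all genes, not of the called ones.

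Chil3, Chil4, S100a8 and S100a9 were higher in RAEB, and on both diseased arrays they exceeded the 4 others. Chil3, which encodes a chitinase-like protein secreted by myeloid cells, stood at 9.56 in RAEB and 4.87 in MDS/MPN, against 1.36 in Tet2KD/KDEzh2-/-, 0.13 in Ezh2-/-, 0.37 in Tet2KD/KD and 0.66 in wild-type GMPs. RAEB was 25.8-fold above MDS/MPN, and MDS/MPN in turn lay over the arrays without disease. Its neighbour and relative Chil4 stood at 2.70 in RAEB and -2.50 in MDS/MPN, against -5.09 in Tet2KD/KDEzh2-/-, -6.28 in Ezh2-/-, -6.45 in Tet2KD/KD and -5.31 in wild-type GMPs, where it was not well above background. Chil4 was 36.9-fold higher in RAEB, the largest difference of any named gene well above background on both arrays. Of 5 measured chitinase-like genes 4 were higher and 1 was lower, with a median of 2.20. Ctbs (chitobiase, a lysosomal enzyme) differed by 2.20 and Chit1 (chitotriosidase) was at least 1.26-fold higher, whereas Chid1 differed by -1.07. With normexp the differences of Ctbs, Chit1 and Chid1 were under 2-fold. Chil3 and Chil4 are close copies, so part of either signal may come from the other's RNA.

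The promoters of Chil3 and Chil4 are shown beside those of Ear1 and Ear2, the eosinophil ribonuclease genes described next, because each pair consists of related genes and the pairs lay at least 8-fold apart in opposite directions. Some other eosinophil genes differed more than Ear1 and Ear2. The sequences are RefSeq's (GRCm38.p6), from 250 bases before to 50 bases after the transcription start, read along the gene's own strand. Capitals mark matches to TTGCNNAA, a motif of the C/EBP factors, and to AGGAAGT, a motif of PU.1, on either strand. The positions are chr3:106167515-106167814 (minus strand) for Chil3, chr3:106219430-106219729 (minus) for Chil4, chr14:43819590-43819889 (minus) for Ear1 and chr14:44102404-44102703 (plus) for Ear2.
Chil3: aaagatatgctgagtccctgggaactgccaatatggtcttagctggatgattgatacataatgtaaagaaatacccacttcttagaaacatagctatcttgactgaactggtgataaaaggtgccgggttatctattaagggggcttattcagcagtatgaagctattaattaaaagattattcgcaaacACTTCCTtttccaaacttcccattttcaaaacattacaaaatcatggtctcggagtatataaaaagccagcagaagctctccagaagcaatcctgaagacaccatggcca
Chil4: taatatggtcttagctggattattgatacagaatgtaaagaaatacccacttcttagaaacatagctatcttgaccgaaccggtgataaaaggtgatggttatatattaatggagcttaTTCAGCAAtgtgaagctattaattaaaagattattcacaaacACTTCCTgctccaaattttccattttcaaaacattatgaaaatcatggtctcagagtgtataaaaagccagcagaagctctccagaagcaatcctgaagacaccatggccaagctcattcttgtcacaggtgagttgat
Ear1: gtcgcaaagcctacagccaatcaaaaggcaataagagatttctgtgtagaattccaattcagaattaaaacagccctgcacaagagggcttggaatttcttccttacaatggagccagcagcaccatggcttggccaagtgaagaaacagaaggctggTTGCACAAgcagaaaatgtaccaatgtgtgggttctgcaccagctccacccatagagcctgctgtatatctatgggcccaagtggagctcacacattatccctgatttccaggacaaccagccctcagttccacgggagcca
Ear2: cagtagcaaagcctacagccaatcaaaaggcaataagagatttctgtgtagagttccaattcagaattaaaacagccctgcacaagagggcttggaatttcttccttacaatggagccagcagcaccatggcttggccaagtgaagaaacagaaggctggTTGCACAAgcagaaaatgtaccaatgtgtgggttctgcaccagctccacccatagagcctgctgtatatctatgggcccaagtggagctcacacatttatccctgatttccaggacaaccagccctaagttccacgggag
The PU.1 motif was found once each in Chil3, 60 bases before the start, and in Chil4, 89 bases before it. The C/EBP motif was found once in Chil4, Ear1 and Ear2, at 131, 92 and 90 bases before the start. Of all 32851 promoters 10.8% held the C/EBP motif and 9.35% the PU.1 motif. The Chil3 and Chil4 promoters were 76.6% identical in a global alignment and the Ear1 and Ear2 promoters 97.0%. A match is a description of letters in this window and says nothing of binding.

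Late neutrophil granule genes were split. Of 22 measured, 7 were higher (31.8%, against 5.35% of all genes) and 1 lower (4.55%, against 10.1%) in RAEB, with a median of 0.46. The calgranulin gene S100a9 stood at 8.08 in RAEB and 5.55 in MDS/MPN, against 2.72 in Tet2KD/KDEzh2-/-, 3.21 in Ezh2-/-, 3.90 in Tet2KD/KD and 3.71 in wild-type GMPs. Its partner S100a8 stood at 8.50 in RAEB and 6.40 in MDS/MPN, against 5.11, 3.62, 3.30 and 4.36 in the same 4 arrays. In both genes RAEB was highest, MDS/MPN next and the 4 arrays without disease below, by 5.77-fold (S100a9) and 4.29-fold (S100a8) between the diseased pair. Retnlg, a resistin-like secreted protein, was higher by 2.37 and the acute-phase protein Orm1 by 2.17. The secondary granule genes did not move alike. Camp (cathelicidin) was lower (difference -1.42), at 1.21 in RAEB and 2.64 in MDS/MPN, Ltf (lactoferrin) differed by -0.84, Cd177 by -0.86 and Mmp8 by 0.31, whereas Ngp was higher by 1.33 (0.94 with normexp). Relative to the 4 arrays without disease RAEB lay above all of them in 18 of the 22 genes and MDS/MPN in 17. Over all genes these shares were 40.1% and 58.1%.

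The main primary granule proteins differed by less than 2-fold, while other members of the list did not. Mpo differed by 0.05, Prtn3 by 0.03, Ctsg by -0.20 and Elane by -0.44, and over 15 primary granule protease genes 2 were higher (13.3%, against 5.35% of all genes) and 3 lower (20%, against 10.1%), with a median of -0.25. These were Gzmb (granzyme B), at least 5.99-fold higher in RAEB, the lysozyme gene Lyz2, higher by 1.17, and the lower Nkg7 (-2.05), Ctsc (-1.26) and Serpinb1a (-1.15). With normexp the difference of Gzmb was 0.95. For Gzmb RAEB was within the range of the 4 arrays without disease and MDS/MPN below it.

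Eosinophil genes were lower in RAEB than in MDS/MPN, although both arrays lay over the arrays without disease in most of them. Of 14 measured genes 11 were lower (78.6%, against 10.1% of all genes) and 1 higher, and the median was -2.74, the lowest of the 46 lists. Ear1, an eosinophil-associated ribonuclease, stood at 3.62 in RAEB and 6.99 in MDS/MPN, against 0.65 in Tet2KD/KDEzh2-/-, 0.12 in Ezh2-/-, -2.11 in Tet2KD/KD and 1.1 in wild-type GMPs. MDS/MPN was 10.4-fold above RAEB, and RAEB itself lay over all 4. Eosinophil peroxidase (Epx) stood at 3.00 in RAEB and 6.93 in MDS/MPN, against 1.85, 2.10, 0.49 and 2.25 in the same 4 arrays in that order. Prg3, a relative of major basic protein, stood at 1.99 in RAEB and 6.10 in MDS/MPN, against 2.59, 2.57, 0.87 and 2.10. For Prg3 only MDS/MPN left the range of the 4.

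Among the ribonucleases Ear6 differed by -4.55, Rnase2a by -3.84, Ear10 by -3.66 and Ear2 by -3.28. They are near-identical copies in one cluster on chromosome 14, so that their signals cannot be fully separated and are not independent. Outside that cluster major basic protein (Prg2) stood at 8.51 in RAEB and 10.13 in MDS/MPN, against 3.77 to 5.65 in the 4 arrays without disease, a 3.09-fold difference. The interleukin-5 receptor Il5ra was lower (difference -2.20), with RAEB within the range of the 4. Siglecf, a surface lectin of eosinophils, stood at 0.33 in RAEB and 1.84 in MDS/MPN, and MDS/MPN lay within the range of the 4. Rnase4, a ribonuclease of wider expression, was the member that was higher, by 2.28. All 7 eosinophil markers were well above background on all 6 GMP arrays, with a median level of 3.00 in RAEB and 6.93 in MDS/MPN and of -0.04 to 2.10 in the 4 others.

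Mast cell and basophil genes were also lower in part. Of 13 measured, 5 were lower (38.5%, against 10.1% of all genes) and 1 higher (7.69%, against 5.35%), with a median of -0.59. Mcpt8, a protease of basophils, stood at 2.05 in RAEB and 5.20 in MDS/MPN, against 3.74 in Tet2KD/KDEzh2-/-, 3.82 in Ezh2-/-, 3.91 in Tet2KD/KD and 3.74 in wild-type GMPs. For Mcpt8 RAEB lay below the 4 and MDS/MPN above them, whereas of the 14 eosinophil genes RAEB lay above the 4 in 11 and MDS/MPN in 12. Over all genes RAEB lay above the 4 in 40.1% and MDS/MPN in 58.1%. The arrangement of Mcpt8 also held for Fcer1a, the high-affinity IgE receptor chain, at -0.15 in RAEB and 3.31 in MDS/MPN (0.57 to 1.75 in the 4). Prss34, a basophil protease, differed by -3.17, and the member that was higher was the mast cell tryptase Tpsb2, by 1.62.

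**Figure D2:**
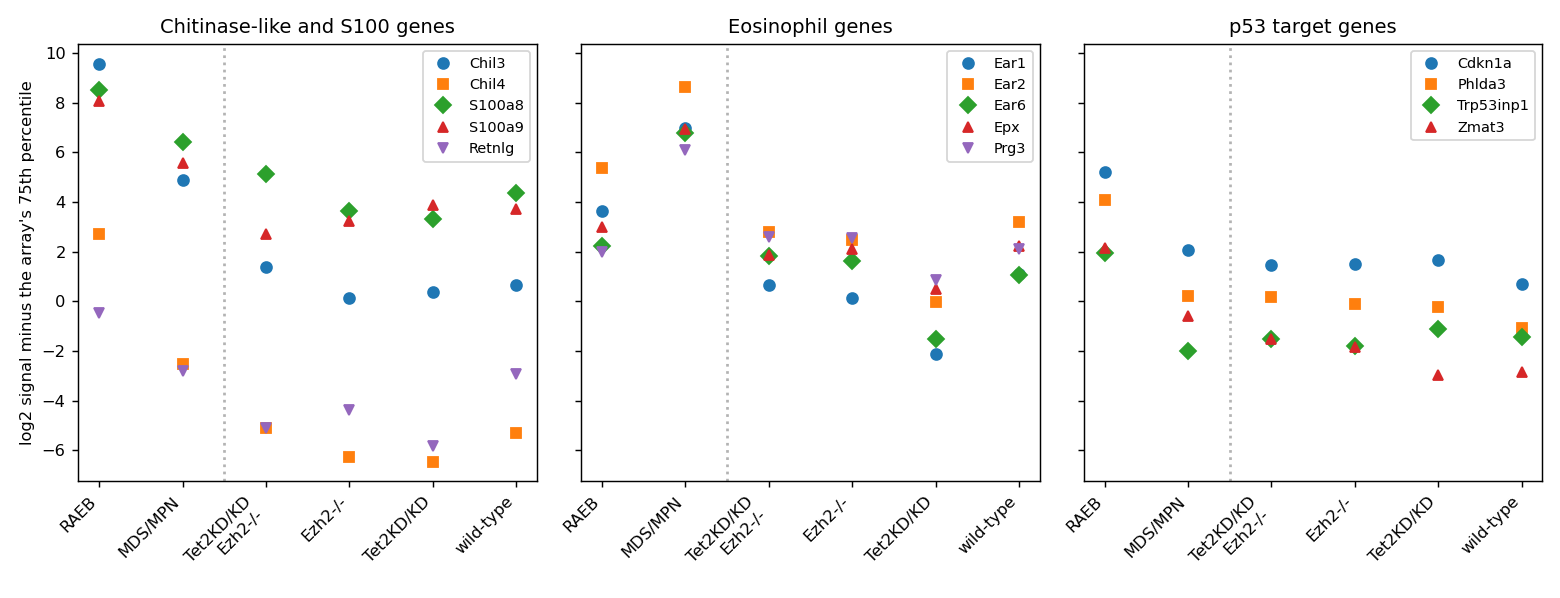
Levels (log2 signal minus the 75th percentile of the array) of chitinase-like and S100 genes, eosinophil genes and p53 target genes on the 6 GMP arrays, 1 point per array and no error bars because there are no replicates. The dotted line parts the 2 diseased arrays from the 4 without disease. Chil3 stood at 9.56 in RAEB and 4.87 in MDS/MPN, Ear1 at 3.62 in RAEB and 6.99 in MDS/MPN, and Phlda3 at 4.08 in RAEB and 0.20 in MDS/MPN.

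Targets of p53, the transcription factor that answers DNA damage and other stress, were in part higher in RAEB. Of 22 measured, 11 were higher (50%, against 5.35% of all genes) and none lower, with a median of 0.87, against -0.17 for all genes. The cell cycle inhibitor Cdkn1a (p21) stood at 5.22 in RAEB and 2.05 in MDS/MPN, against 1.46 in Tet2KD/KDEzh2-/-, 1.50 in Ezh2-/-, 1.67 in Tet2KD/KD and 0.70 in wild-type GMPs. Phlda3, an inhibitor of Akt signalling, stood at 4.08 in RAEB and 0.20 in MDS/MPN, against 0.16, -0.09, -0.23 and -1.06 in the same 4 arrays. In both genes RAEB stood apart from the 5 other arrays, by 8.98-fold (Cdkn1a) and 14.7-fold (Phlda3) over MDS/MPN. Trp53inp1, a stress protein that acts with p53, stood at 1.93 in RAEB and -1.98 in MDS/MPN, and MDS/MPN was there below all 4 arrays without disease (-1.82 to -1.10). Zmat3, an RNA-binding protein, was higher by 2.72.

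The other 7 higher members, named after their values were seen, were Btg2 (2.56), the pro-apoptotic genes Bbc3 (1.92) and Pmaip1 (1.51), Plk2 (1.89), the DNA polymerase Polk (at least 3.18-fold), Ccng1 (1.47) and the death receptor Tnfrsf10b (1.12). Several textbook targets, also picked after their values were seen, did not differ by 2-fold: Mdm2, which degrades p53, differed by 0.48, Bax by -0.12, Gdf15 by 0.45, Aen by -0.16 and Sesn1 by -0.68. RAEB lay above all 4 arrays without disease in 19 of the 22 genes and MDS/MPN in 13, shares to be read against the 40.1% and 58.1% of all genes.

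The promoters of Cdkn1a and Ccng1 are shown because both genes were higher in RAEB and both windows hold a p53 half-site, marked in capitals. They lie at chr17:29090729-29091028 (plus strand, the first of 2 starts listed for Cdkn1a) and chr11:40755237-40755536 (minus strand) of GRCm38.p6, from RefSeq.
Cdkn1a: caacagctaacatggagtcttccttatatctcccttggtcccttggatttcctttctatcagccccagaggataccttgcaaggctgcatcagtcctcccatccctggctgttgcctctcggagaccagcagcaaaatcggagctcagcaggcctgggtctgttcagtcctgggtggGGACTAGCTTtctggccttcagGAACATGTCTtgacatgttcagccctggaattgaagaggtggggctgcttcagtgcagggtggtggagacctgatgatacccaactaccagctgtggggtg
Ccng1: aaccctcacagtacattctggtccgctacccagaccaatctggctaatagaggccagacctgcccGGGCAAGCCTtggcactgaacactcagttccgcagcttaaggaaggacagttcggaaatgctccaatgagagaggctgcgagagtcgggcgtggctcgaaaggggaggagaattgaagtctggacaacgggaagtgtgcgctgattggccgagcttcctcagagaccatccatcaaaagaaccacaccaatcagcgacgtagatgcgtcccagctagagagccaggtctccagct
Half-sites began 73 and 51 bases before the Cdkn1a start and 185 bases before the Ccng1 start. Of the 22 measured p53 targets 17 had a promoter in the table, and 9 of these held a half-site on either strand in at least 1 of their promoters, against 9.55% of all 27025 genes in the table. The same search found a half-site in 6 of 19 late neutrophil granule genes with a promoter. It found 0 among 5 chitinase-like genes and 0 among 12 eosinophil genes. Sites further from the start were not searched.

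Most proliferation genes had differences below 0 but under 2-fold. Of 40 genes 6 were lower (15%, against 10.1% of all genes) and none higher, with a median of -0.67, and 5 of the 40 differences were above 0, against 38.8% of all genes. The replication licensing factor Cdc6 stood at 0.52 in RAEB and 2.05 in MDS/MPN, against 1.56 in Tet2KD/KDEzh2-/-, 1.27 in Ezh2-/-, 1.33 in Tet2KD/KD and 1.51 in wild-type GMPs. RAEB was below and MDS/MPN above the 4, an arrangement shared by Rrm2 (ribonucleotide reductase, -1.44), Cdk4 (-1.34) and Foxm1 (-1.15). Over the list RAEB lay below all 4 in 27 of 40 genes (against 36.4% of all genes) and MDS/MPN above all 4 in 28 (against 58.1%). With quantile normalization the differences of Cdk4 (-0.90) and Foxm1 (-0.96) were under 2-fold. Among 7 cyclin-dependent kinase inhibitors Cdkn1b (p27) was also higher, by 1.16, and Cdkn3 lower (difference -1.09), whereas Cdkn2c and Cdkn2d differed by -0.04 and -0.01.

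**Figure D3:**
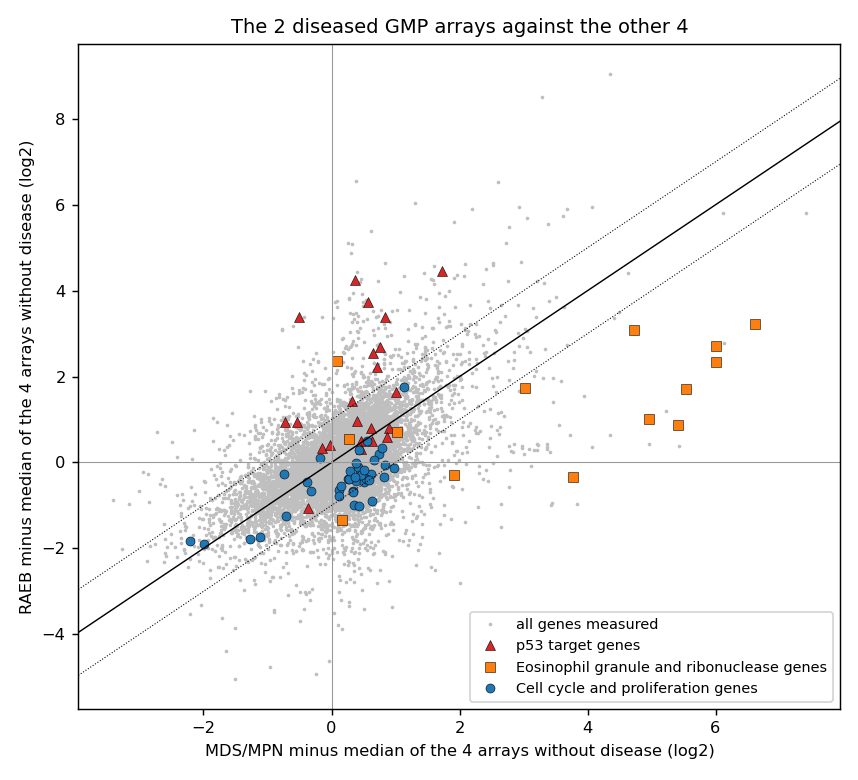
Each point is a gene, placed by MDS/MPN (horizontal) and RAEB (vertical) minus the median of the 4 GMP arrays without disease, in log2 units, 1 array each. The solid line marks equal values in RAEB and MDS/MPN and the dotted lines a 2-fold difference. Most eosinophil genes lie to the right of the lines (list median of 1.36 in RAEB and 4.24 in MDS/MPN). The p53 targets lie above them or near 0 (0.95 in RAEB and 0.52 in MDS/MPN), and proliferation genes lie lower in RAEB (-0.38 in RAEB and 0.38 in MDS/MPN). These medians are to be set against 0.04 in RAEB and 0.31 in MDS/MPN for all genes measured.

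Immediate-early, chemokine and inflammatory lists held more genes higher in RAEB than lower, although over all genes fewer were higher (5.35%) than lower (10.1%). Of 26 immediate-early genes, which are transcribed within minutes of a stimulus, 10 were higher and 1 lower, with a median of 0.83, and 25 of 26 differences were above 0. The nuclear receptor Nr4a1 stood at 7.18 in RAEB and 4.63 in MDS/MPN, against 2.57 in Tet2KD/KDEzh2-/-, 3.11 in Ezh2-/-, 4.62 in Tet2KD/KD and 2.93 in wild-type GMPs. MDS/MPN and Tet2KD/KD were level there, and RAEB stood above both. Ier5 was higher by 2.77, Btg2 (also a p53 target) by 2.56 and Egr2 by 2.10, while Fos and Jun, which encode the subunits of the transcription factor AP-1, differed by 0.42 and 0.64. The member that was lower was Gadd45b (difference -1.15).

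Of 21 chemokine and chemokine receptor genes 10 were higher and 3 lower, with a median of 0.73. The monocyte chemoattractants Ccl7 and Ccl12 were at least 13-fold and at least 5.27-fold higher, since MDS/MPN was not well above background for either. Ccl4, a macrophage inflammatory protein, stood at 7.64 in RAEB and 4.31 in MDS/MPN, against 3.84 in Tet2KD/KDEzh2-/-, 3.82 in Ezh2-/-, 6.04 in Tet2KD/KD and 4.71 in wild-type GMPs. Only RAEB left the range of the 4 for Ccl4. With normexp the difference of Ccl12 was 0.86. The fractalkine receptor Cx3cr1 went the other way, at -2.25 in RAEB and 1.54 in MDS/MPN, against 2.39 to 3.09 in the 4 arrays without disease. The receptor Ccr2 was lower (difference -1.53), and for both receptors RAEB was the lowest of the 6 arrays.

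Among 25 inflammatory response genes 8 were higher and 1 lower, with a median of 0.37. Socs3, an inhibitor of cytokine signalling, stood at 5.02 in RAEB and 1.52 in MDS/MPN, against 1.22, 0.81, 0.78 and 0.23 in Tet2KD/KDEzh2-/-, Ezh2-/-, Tet2KD/KD and wild-type GMPs. The cytokine gene Il1b was higher by 2.66 and the inflammasome sensor Nlrp3 by 2.35, and Cd40 was at least 2.75-fold lower. The interferon response was uneven. Of 37 genes 8 were higher and 4 lower, with a median of 0.17. Oas2, an antiviral oligoadenylate synthetase, stood at 1.04 in RAEB and -2.82 in MDS/MPN, where MDS/MPN was below the 4 arrays without disease (-2.79 to -1.38), Rtp4 was higher by 2.36 and Irf7 by 2.30.

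Genes of biosynthesis and energy metabolism mostly had differences below 0 and under 2-fold. All 36 subunits of the mitochondrial respiratory chain had a difference below 0, with a median of -0.59, but only 2 were lower by 2-fold, Cycs (cytochrome c, -1.49) and Atp5g1 (-1.31). Glycolysis genes had a median of -0.66 (0 higher and 3 lower of 21), among them Ldha (lactate dehydrogenase), at 8.79 in RAEB and 9.79 in MDS/MPN. All 8 haem synthesis enzymes differed below 0, with Uros (-1.54) and Alad (-1.47) past 2-fold. These medians are to be set against -0.17 for all genes, and the counts against 5.35% higher and 10.1% lower.

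Of 24 heat shock and chaperone genes 5 were lower (20.8%, against 10.1% of all genes) and none higher, with a median of -0.68. Calr (calreticulin, a chaperone of the endoplasmic reticulum) stood at 6.16 in RAEB and 7.82 in MDS/MPN, against 7.17 to 7.56 in the 4 arrays without disease. Of 24 unfolded protein and amino acid response genes 10 were lower (41.7%) and none higher, with a median of -0.58. Among the lower were the mitochondrial folate enzymes Mthfd2 (-1.85) and Shmt2 (-1.50). Ribosomal protein genes differed least: none of 42 differed by 2-fold, the range was -0.29 to 0.17, and the median of 0.04 changed sign under 2 alternative settings. Redox genes of the glutathione and thioredoxin systems had a median of -0.17, equal to that of all genes, with Gsta3 higher by 1.49, and lysosome genes had a median of -0.14.

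**Figure D4:**
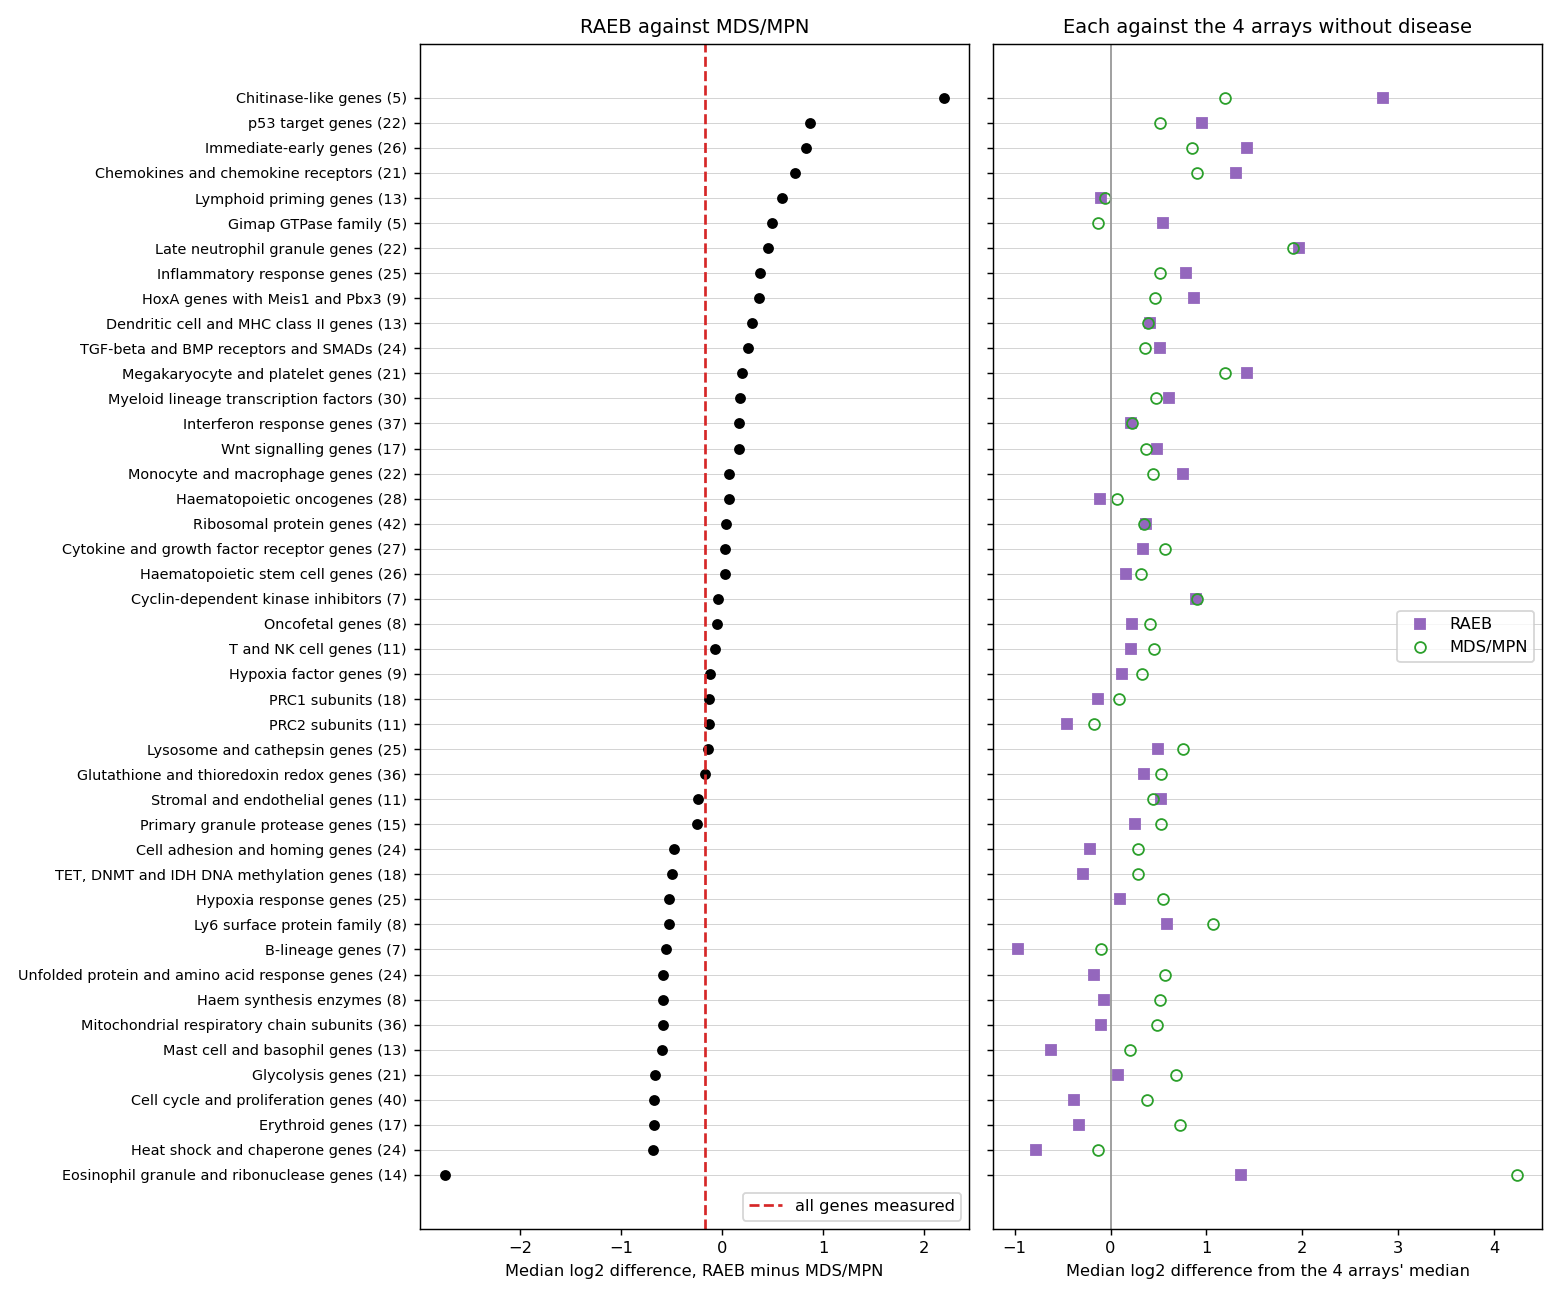
Median log2 difference of each of the 46 gene lists that had at least 5 measured genes (number measured in brackets). The 2 lists drawn up after values had been seen (cholesterol pathway and aminoacyl-tRNA synthetase genes) are not drawn. The left panel shows RAEB minus MDS/MPN, with a dashed line at the median of all genes (-0.17). The right panel shows RAEB (squares) and MDS/MPN (open circles), each minus the median of the 4 GMP arrays without disease. Chitinase-like genes had the highest median on the left (2.20) and eosinophil genes the lowest (-2.74). On the right proliferation genes lie at -0.38 in RAEB and 0.38 in MDS/MPN, against 0.04 and 0.31 for all genes measured.

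Erythroid genes were lower in part, with 6 of 17 lower (35.3%, against 10.1% of all genes), none higher and a median of -0.67. The alpha-globin genes Hba-a1 and Hba-a2, near-identical copies, stood at -3.07 and -0.41 in RAEB and at -0.23 and 2.13 in MDS/MPN. The erythroid and eosinophil factor Gata1 stood at -0.02 in RAEB and 1.69 in MDS/MPN, against 0.39 in Tet2KD/KDEzh2-/-, 0.75 in Ezh2-/-, 0.06 in Tet2KD/KD and 0.60 in wild-type GMPs. RAEB was the lowest and MDS/MPN the highest of the 6 arrays for Gata1, and it was the member of 30 myeloid transcription factors that was lower (6 were higher, median 0.18). Megakaryocyte and platelet genes were split, with 3 higher and 1 lower of 21 and a median of 0.20. In RAEB 17 and in MDS/MPN 19 lay above all 4 others, against 40.1% and 58.1% of all genes. Pf4 (platelet factor 4) stood at 4.70 in RAEB and 3.00 in MDS/MPN, against -0.87 to 0.80 in the 4, and Thbs1 (thrombospondin), at 1.55 in RAEB and -2.14 in MDS/MPN, differed 12.9-fold.

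Stem cell, oncogene and receptor counts are to be read against the 15.5% of all genes that lay 2-fold apart. Of 26 stem cell genes 2 were higher and 1 lower, with a median of 0.03 that changed sign under some settings. Those higher were Robo4 (at least 3.46-fold) and Esam (at least 1.84-fold), also endothelial genes, and Angpt1 was lower (difference -1.75). Cd34 and Kit, surface proteins of progenitors, differed by -0.81 and -0.96. The receptor Flt3 stood at 4.58 in RAEB and 2.24 in MDS/MPN, against -0.01 in Tet2KD/KDEzh2-/-, -0.25 in Ezh2-/-, 1.59 in Tet2KD/KD and 1.54 in wild-type GMPs, so that it was higher on both diseased arrays than on any other and highest in RAEB. Among 27 cytokine receptor genes the decoy interleukin-1 receptor Il1r2 differed most, at 1.69 in RAEB and -2.26 in MDS/MPN (15.4-fold), and the median was 0.03. Of 9 HoxA genes with Meis1 and Pbx3, 1 was higher (Hoxa6, at least 2.58-fold) and the median was 0.36, and no measured HoxB gene (3) differed by 2-fold. Of 28 haematopoietic oncogenes 2 were higher (Flt3 and Trib1, 1.06).

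Other lineages gave mixed counts, to be read against 5.35% higher and 10.1% lower over all genes. Of 22 monocyte and macrophage genes 4 were higher and 5 lower, with a median of 0.07, led by the lipopolysaccharide co-receptor Cd14, at 6.21 in RAEB and 3.92 in MDS/MPN, and by Cx3cr1. Csf1r, the receptor of macrophage colony-stimulating factor, differed by -0.12, and C1qa was not well above background on any of the 6 arrays. Of 13 dendritic cell and MHC class II genes 3 were higher and 1 lower, of 13 lymphoid priming genes 3 were higher and 3 lower, of 7 B-lineage genes 1 was higher and 3 lower, and of 11 T and NK cell genes 1 was higher and 3 lower. The lymphoid marker Il7r was not well above background on any GMP array. The Gimap family gave 1 higher of 5 (Gimap6, 1.38), the Ly6 family none of 8 past 2-fold with a median of -0.53, and stromal and endothelial genes 2 higher and 1 lower of 11.

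Among chromatin regulators 18.2% of PRC2 genes (all higher) and 16.7% of DNA methylation genes (all lower) passed 2-fold. These shares were near the 15.5% of all genes (5.35% higher and 10.1% lower). Of 11 PRC2 subunits Phf1 and Aebp2, accessory subunits, were higher by 1.09 and 1.02, and both fell short of 2-fold with normexp. Another Aebp2 probe differed by -0.04. Ezh1, the other catalytic subunit, stood at 3.92 in RAEB and 3.28 in MDS/MPN, against 2.88 to 2.92 in the 4 arrays without disease. Its 3 measured probes differed by 0.63 to 1.64. Suz12 stood at 1.30 in RAEB and 1.60 in MDS/MPN, and Mtf2 at 2.30 in RAEB and 2.26 in MDS/MPN, below the 4 arrays on both. No PRC1 subunit of 18 differed by 2-fold. Of 18 genes of DNA methylation 3 were lower, Tet2, Dnmt3l (-1.45) and Uhrf1 (-1.12), and none was higher, with a median of -0.49. Idh2 differed by -0.98, just short of 2-fold.

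Hif3a, a hypoxia-inducible factor subunit, was set apart from its family. It stood at -0.29 in RAEB and -3.19 in MDS/MPN, against -3.69 in Tet2KD/KDEzh2-/-, -3.75 in Ezh2-/-, -4.79 in Tet2KD/KD and -4.79 in wild-type GMPs, a 7.47-fold difference within the pair. Of those 4 arrays 2 had Hif3a well above background. Its difference of 2.90 within the pair was 1.37 at the lowest under the alternatives. The other 8 hypoxia factor genes differed by -0.82 (Egln3) to 0.17 (Epas1), and Hif1a by -0.11. Of 25 hypoxia response genes 4 were lower (16%, against 10.1% of all genes) and 1 higher (4%, against 5.35%), with a median of -0.53. The member that was higher was Ddit4, an inhibitor of mTOR signalling that other stresses also induce, at 7.22 in RAEB and 4.54 in MDS/MPN. Of 24 TGF-beta and BMP pathway genes 4 were higher (16.7%) and 1 lower (4.17%), and of 17 Wnt genes 2 were higher (11.8%). Of 24 adhesion and homing genes 5 were lower (20.8%) with a median of -0.47, and of 8 oncofetal genes 2 were lower (25%). Over all genes 5.35% were higher and 10.1% lower.

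Among the 15 genes furthest apart in each direction, several belonged to none of the lists. Higher in RAEB were Gadd45g, a stress-induced growth arrest gene (3.12), Sohlh2, a germ cell transcription factor (3.09), Scrg1 (3.02) and Bmf, a pro-apoptotic BH3-only gene (2.97). Sohlh2 stood at 1.00 in RAEB and -2.09 in MDS/MPN, with the 4 arrays without disease between -2.54 and -2.37. Lower in RAEB were Tmem178 (-4.80), the retinol carrier Rbp4 (-4.16), Uaca (-4.04), the mitochondrial acyl carrier gene Ndufab1 (-3.53), Prxl2b (-3.46) and Olfm1 (-3.39). Ndufab1 stood at -1.24 in RAEB and 2.29 in MDS/MPN, against 2.11 to 2.39 in the 4 arrays without disease, so that RAEB alone left a narrow range. Prxl2b, a prostaglandin synthase, stood at -0.01 in RAEB and 3.45 in MDS/MPN, against 2.76 to 3.14, with RAEB below and MDS/MPN above the range.

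Where MDS/MPN was not well above background, the lower bounds were at least 27.2-fold for Cd83, a marker of activated antigen-presenting cells, at least 19.1-fold for the ephrin receptor Epha2 and at least 7.50-fold for Pdcd1, the receptor PD-1. Where RAEB was not well above background, they were at least 17.2-fold lower for the amino acid transporter Slc36a2, at least 11.4-fold for the sphingolipid desaturase Degs2 and at least 8.98-fold for Lrrn3. For Cd83 and Slc36a2 the bound was the observed ratio. Under the alternatives their differences of 4.77 and -4.10 came down to 2.61 and -1.95 at the smallest. Those of Epha2 (4.74) and Pdcd1 (4.85) came down to 2.10 and 1.12. Those of Degs2 (-4.31) and Lrrn3 (-4.42) came down to -1.52 and -1.26. The bounds thus hold for the main processing only. Epha2 and Pdcd1 were not well above background on any of the arrays without disease, whereas Slc36a2 and Degs2 were so on all 4.

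The same difference in LSK cells was measured on other arrays and a separate slide. Of the 676 genes higher in RAEB GMPs, 41 (6.07%) were also higher and 38 (5.62%) were lower in RAEB LSK cells, against 0.989% and 1.68% of the 12645 genes. Of the 1283 lower genes 46 (3.59%) were also lower and 16 (1.25%) higher in LSK cells. The higher genes thus had nearly as many opposite as like directions. Late neutrophil granule genes were the clearest contrast: their median was 0.46 in GMPs and -3.35 in LSK cells, where 16 were lower and none higher. Eosinophil genes had a like median in both (-2.74 in GMPs and -2.82 in LSK cells), and so did immediate-early genes (0.83 in GMPs and 1.31 in LSK cells). The p53 targets had a median of 0.87 in GMPs and 0.08 in LSK cells, and proliferation genes -0.67 and 0.14. None of these differences between cell types was tested.

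**Figure D5:**
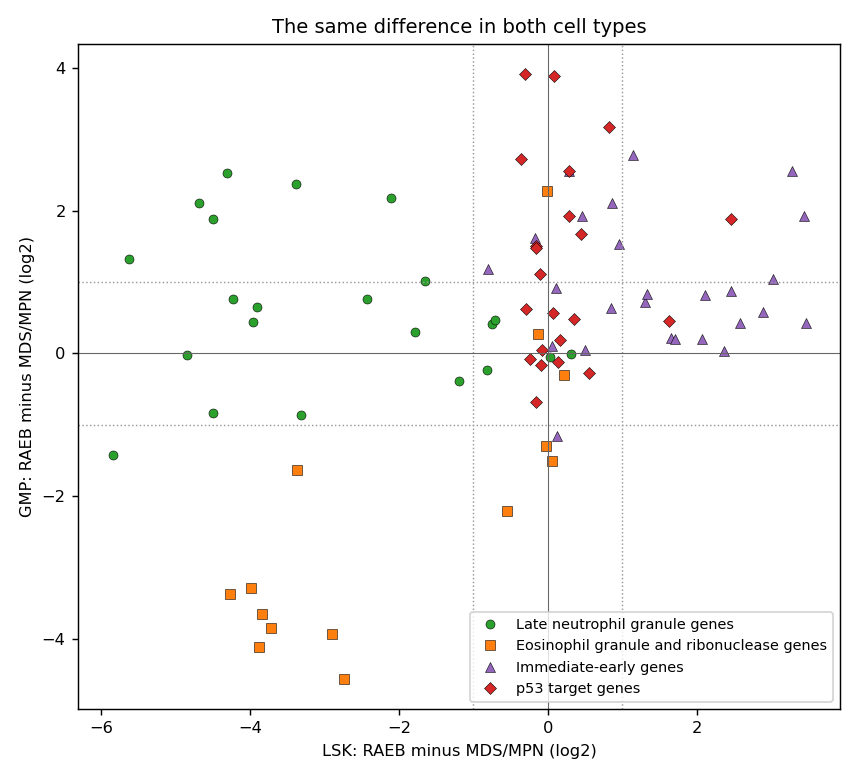
RAEB minus MDS/MPN in GMPs (vertical) against the same difference in LSK cells (horizontal), in log2 units, for the measured members of 4 lists, 1 array per condition and cell type. Dotted lines mark a 2-fold difference. Late neutrophil genes lie on the left with values on both sides of 0 in GMPs, eosinophil genes lie mostly at the lower left, and p53 targets near 0 in LSK cells (median 0.08).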

How the data were processed

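RNA of 12 sorted cell populations was labelled with Cy3 and hybridised to Agilent 1-colour mouse arrays, 1 array per condition and cell type. The values used were the processed signal intensities of the deposited scanner files, already background-subtracted by Feature Extraction 10.7.1.1 per the file headers; control spots, outlier flags and the well-above-background flags came from other columns of the same deposited files. The deposited series value table held the same processed signals at all 62976 spots. The build behind the probe design is not given in the sources used here.

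From these, log2 of each signal minus the 75th percentile over the 59305 gene spots of its array was computed (Python 3.11.15, numpy 2.4.6, pandas 2.3.3). Spots flagged as outliers were left out (146 in RAEB and 139 in MDS/MPN), no gene spot was saturated, spots of a probe were averaged, and the brightest probe of a gene over the 12 arrays stood for it. RefSeq accessions gave 1 symbol to 26762 of 55681 probes (20284 genes), and 28919 probes stayed unnamed. Genes whose probe passed the background call in RAEB, MDS/MPN or both, 12645 in all, were compared (2 without a value on one array). A gene was called at 2-fold or more with its brighter array well above background. The "at least" folds set the brighter level against the lowest well-above-background signal of the dimmer array. Where the gene's own level on the dimmer array was higher than that signal, its own level was used, and the fold is the observed ratio. The "at least" folds hold for the main processing, and alternatives gave smaller sizes for some genes. Of 391 called genes with several measured probes, all probes gave the same sign in 346. The subtraction and the 2-fold cut recovered known folds in simulated levels. These levels were already scaled and all set well above background, so the scaling and the background call were not covered. Alternatives were quantile normalization and normexp with offset 50 (R 4.3.3, limma 3.58.1), another centring, other filters, a floor, all probes of a gene, and the value table. Normexp used the median signal column.

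Genes named were Chil3, Ear1, Hif3a, Tet2 and Ezh2, up to 15 furthest apart each way with both arrays well above background, up to 8 bounds each way, up to 4 members of a list (all for lists of 12 or fewer) and cell type markers. Members named beyond that, to complete a short count or as counterexamples (further p53 targets, Fos, Jun, Gadd45b, Siglecf, Rnase4, Ear10, Tpsb2, Serpinb1a), were picked after their values were seen. The arrays and the 46 lists were chosen with earlier results of these data known, so a list is described by counts and its median and supports nothing independently.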

Additional observations from a re-analysis of the deposited data

Results flagged for a closer look

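In 13 named genes RAEB and MDS/MPN lay at least 2-fold apart in opposite directions in GMPs and in LSK cells, with 1 array per condition and cell type, so none of these contrasts between the cell types was tested. The values here are the GMP difference minus the LSK difference on the log2 scale. Higher in RAEB GMPs and lower in RAEB LSK cells were the chitinase-like genes Chil3 (10.8, from 4.69 in GMPs and -6.15 in LSK cells) and Chil4 (9.53), the neutrophil genes Ngp (6.95), S100a9 (6.83), S100a8 (6.79) and Retnlg (5.75), granzyme B (Gzmb, 5.36) and Scrg1 (5.67). Lower in RAEB GMPs and higher in RAEB LSK cells were the surrogate light chain genes of early B cells Igll1 (-7.19) and Vpreb1 (-4.81), the B cell adaptor Blnk (-4.34) and the alpha-globin genes Hba-a1 (-3.84) and Hba-a2 (-3.54). In 5 of the 13 an array was not well above background, so that the value sets signals against background and is not a measured size: Igll1 in RAEB GMPs and MDS/MPN LSK cells, Blnk in RAEB GMPs, Gzmb in MDS/MPN GMPs, and Chil4 and Scrg1 in RAEB LSK cells. As a bound the GMP difference was at least 1.48-fold lower for Igll1 and at least 2.47-fold lower for Blnk. The diseased GMP arrays had Eif2s3y above background and Xist at background, the diseased LSK arrays the reverse, and the diseased arrays of each cell type were on a slide of their own, so that cell type, slide and sex-linked signal cannot be told apart between them.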

How the results depend on the processing

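Without a filter on dim probes 1130 genes were higher in RAEB, against 676, and with both arrays required well above background 417. Normexp gave 180 higher and 755 lower (1283), and 170 higher genes with RAEB above all 4 arrays without disease (562). Centring on the array median gave 522 higher and 1797 lower, which made the higher share of the called genes 22.5%, against 34.5%, and quantile normalization 643 and 956 (40.2%). The median of all genes was -0.17, and -0.32 with median centring and -0.03 with quantile normalization. Leaving out each of the 4 arrays without disease in turn moved the count above all of them between 565 and 575 and the count below all of them between 1029 and 1078. All 156 named genes past 2-fold kept their sign under each of up to 8 alternatives, and 92 stayed past 2-fold in all of those. The lymphoid priming median of 0.60 turned to -0.012 without the filter; the cause was not tested. Medians of the p53 targets (0.46 to 0.90), immediate-early (0.68 to 1.02), eosinophil (-3.28 to -1.92) and proliferation genes (-0.83 to -0.37) kept their sign. No paired analysis was possible because each condition has 1 array and no replicate numbers. Dim probes limit the sizes that bounds give.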

Other observations

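Cholesterol pathway genes, a list drawn up after the values of some members had been seen, mostly passed 2-fold and were then lower in RAEB. All 25 differences were below 0, 16 were past 2-fold (64%, against 10.1% of all genes lower), and the median was -1.18. Sqle (squalene epoxidase) and Fdps (farnesyl diphosphate synthase) each differed by -2.47. RAEB lay below all 4 arrays without disease in 20 of the 25 genes (against 36.4% of all genes) and MDS/MPN above all 4 in 20 (against 58.1%). In LSK cells the median was -0.36 and no gene passed 2-fold. The list median lay between -1.33 and -0.98 under the alternatives, which for this list were chosen after seeing the data.

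Aminoacyl-tRNA synthetase genes, listed in the same way, had a median of -0.76, with 7 lower and none higher of 20. Mars1 (methionyl-tRNA synthetase) stood at 2.14 in RAEB and 3.65 in MDS/MPN, with 2.84 to 3.08 in the 4 arrays without disease, and Iars differed by -1.33. In LSK cells the median was 0.09.

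Probes without a gene symbol leaned the other way from named genes. Of 10213 measured, 1169 were higher and 620 lower in RAEB (17.5% in all). What these probes measure was not analysed here.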
